A study of Mus musculus with 12 samples.

Results

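The 10 genes described here encode the NF-kB transcription factor subunits (Nfkb1, Nfkb2, Rela, Relb and Rel), regulators that restrain or modulate them (Nfkbia, Nfkbiz, Tnfaip3 and Bcl3) and the activating kinase Ikbkb. They were chosen by name, with earlier results of these data known, out of 54532 genes counted. All 10 were among the 18537 with enough counts to be tested. RNA came from the striatum of C57BL/6J mice, and polyA+ libraries were sequenced from 12 samples in 4 groups of 3. The 3d-SN011 and SN011 groups both carry the treatment label tMCAO+SN-011, that is temporary blockage of the middle cerebral artery, which models ischaemic stroke, with SN-011, which the series title calls a STING antagonist. The vehicle group is labelled tMCAO+PBS and the sham group sham+PBS. The labels give no dose, age or sampling time, do not say what 3d stands for and do not tie libraries to individual animals. The p-values therefore describe only the spread between these libraries, which may in part be technical. The prefix 3d occurs only on drug-treated libraries, so against vehicle whatever it denotes and the drug cannot be told apart.

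NF-kB is a family of dimers built from 5 proteins that share the Rel homology domain. In resting cells the dimers are held in the cytoplasm by inhibitors such as IkB-alpha, the product of Nfkbia, until receptors for TNF, interleukin-1 or microbial products activate the IKK kinase complex, which marks the inhibitor for destruction. The canonical route releases RelA and p50 (made from Nfkb1), and the noncanonical route, driven by the kinase NIK (Map3k14), processes the Nfkb2 product p100 to p52, the partner of RelB. Nfkbia, Nfkb2, Relb, Tnfaip3, Nfkbiz and Bcl3 are themselves known targets of NF-kB, which makes several of them feedback regulators. In the brain the pathway is studied mostly in microglia, astrocytes and endothelium, and STING can feed into it through the kinase TBK1.

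Binding sequences of the family are shown first, because 5 of the genes carry the recognition motif close to a transcript start. RefSeq promoter windows (GRCm38.p6, 250 bases before to 50 after each annotated start) were found by symbol for 6 of the 10 genes, not for Nfkb1, Relb, Nfkbiz and Ikbkb. The kappa B consensus, a motif of 10 bases searched on both strands with overlapping matches merged, occurred in a window of 5 of these 6 (Nfkb2, Rel, Nfkbia, Tnfaip3 and Bcl3) and not in that of Rela. Over all genes in the table, 5.14% had a match in at least 1 window. A match is a description of letters and not evidence of binding in these samples. Each line below is written 5' to 3' on the strand of the gene, with the matching bases in capitals.
Nfkbia, chr12:55492657-55492686, minus strand: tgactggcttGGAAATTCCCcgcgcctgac
Rel, chr11:23771042-23771070, minus strand: gtaagcagcGGGAAATCCCCccccctccc
Tnfaip3, chr10:19015516-19015545, minus strand: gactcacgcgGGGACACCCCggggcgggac
Tnfaip3, chr10:19015403-19015432, minus strand: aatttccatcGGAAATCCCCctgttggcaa
Nfkb2, chr19:46304689-46304717, plus strand: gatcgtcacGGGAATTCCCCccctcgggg
Nfkb2, chr19:46304716-46304745, plus strand: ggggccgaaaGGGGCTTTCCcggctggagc
Nfkb2, chr19:46305449-46305478, plus strand: tccgacggcaGGAATGTCCCcacaaaagcc
Nfkb2, chr19:46305695-46305724, plus strand: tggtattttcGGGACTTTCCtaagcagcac
Bcl3, chr7:19822734-19822763, minus strand: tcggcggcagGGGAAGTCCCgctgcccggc
The match of Nfkbia began 29 bases before the transcript start and that of Rel 92 bases before it, while that of Bcl3 began at base 3 of the transcript. Nfkb2 has 3 windows for 3 annotated starts, each with a match, 1 of which lies in 2 of the windows, and Tnfaip3 has 2 windows, of which 1 has matches. For 2 of the genes, 1 inhibitor and 1 subunit, the surrounding 240 bases up to 11 bases before the start give the context of the site.
Nfkbia, chr12:55492658-55492897, minus strand: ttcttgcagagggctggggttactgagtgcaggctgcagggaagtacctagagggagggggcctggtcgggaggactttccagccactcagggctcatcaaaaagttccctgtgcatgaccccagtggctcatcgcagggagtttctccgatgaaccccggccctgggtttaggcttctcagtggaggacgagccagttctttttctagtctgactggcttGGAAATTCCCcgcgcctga
Rel, chr11:23770980-23771219, minus strand: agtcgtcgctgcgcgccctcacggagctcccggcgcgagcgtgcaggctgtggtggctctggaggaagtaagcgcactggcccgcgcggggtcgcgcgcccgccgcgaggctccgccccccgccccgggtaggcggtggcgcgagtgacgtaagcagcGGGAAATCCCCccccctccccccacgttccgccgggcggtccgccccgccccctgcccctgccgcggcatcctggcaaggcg

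The 12 libraries held from 15806076 to 18622053 counted reads. Levels are given as CPM, counts scaled to the TMM library size, and differences as log2 fold changes from edgeR's quasi-likelihood fit of all 12 libraries. Calls rest on an adjusted p (Benjamini-Hochberg, all 18537 genes) below 0.05. Between pairs of replicates, chi-square over degrees of freedom was 47.2 to 78.2 within 3d-SN011, 13.9 to 57.3 within SN011, 6.86 to 19.0 within vehicle and 4.79 to 8.85 within sham. The fit uses one estimate of the spread for all groups.

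All 10 genes stood higher in each 3d-SN011 library than in any vehicle or SN011 library, and none was called between the other groups. Between 3d-SN011 and vehicle 9 of the 10 rose and 0 fell, with Ikbkb the exception. Of all genes 57.1% were called in that comparison, 28.9% higher and 28.2% lower. The median log2 fold change of the 10 was 1.44, against 0.0093 over all genes. Groups that do not overlap, with 3d-SN011 higher, were found for 10 of the 10 and for 29.5% of all genes against vehicle, and for 10 of the 10 and 24.6% of all genes against SN011. None of the 10 was lower without overlap, beside 30% and 25.7% of all genes. In bulk tissue, a change in the number of cells of a type and a change in RNA per cell cannot be told apart, and summed microglia markers stood at 6194 to 8350 CPM in 3d-SN011, 792 to 2902 in SN011 and 547 to 671 in vehicle.

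Between 3d-SN011 and SN011 all 10 rose, where 46.4% of all genes were called, 23.6% higher and 22.9% lower. The 10 had a median log2 fold change of 1.13 against 0.028 over all genes. The call of Ikbkb there was lost without any 1 of 5 of the 6 libraries compared, while the other 9 kept theirs. These comparisons share libraries, 3d-SN011 being in both, so one does not support the other.

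None of the 10 was called for SN011 against vehicle, SN011 against sham or vehicle against sham, by edgeR's quasi-likelihood test with Benjamini-Hochberg adjustment. Over all genes the shares called were 0.0162% (0.0108% higher and 0.00539% lower), 0.113% and 0%, that is 3, 21 and 0 genes. These counts depended on the setting: for SN011 against vehicle 513 genes were called without SN011 replicate 2, 601 without a filter on low counts and 443 by DESeq2, and for SN011 against sham 694, 775 and 638. Without any 1 vehicle library the first count was 0, and without any 1 sham library the second was 0. An unadjusted p under 0.05 was reached by 6 of the 10 for SN011 against vehicle, by 5 for SN011 against sham and by 0 for vehicle against sham, and by 2050, 2368 and 467 of all 18537 genes in these comparisons. DESeq2 called 1 of them, Relb, for SN011 against vehicle (adjusted p = 0.0484), where it called 443 of all genes. It called 0 of the 10 for SN011 against sham, where it called 638 of all genes, and 0 for vehicle against sham, where it called 5. For SN011 against vehicle the groups did not overlap for 6 of the 10, all higher in SN011, where 9.01% of all genes were higher and 7.32% lower without overlap. For SN011 against sham this held for 5 of the 10, all higher, beside 12.8% of all genes higher and 12.9% lower, and for vehicle against sham for 1 higher (Ikbkb) and 1 lower (Tnfaip3), beside 6.86% and 6.29%.

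**Figure D1:**
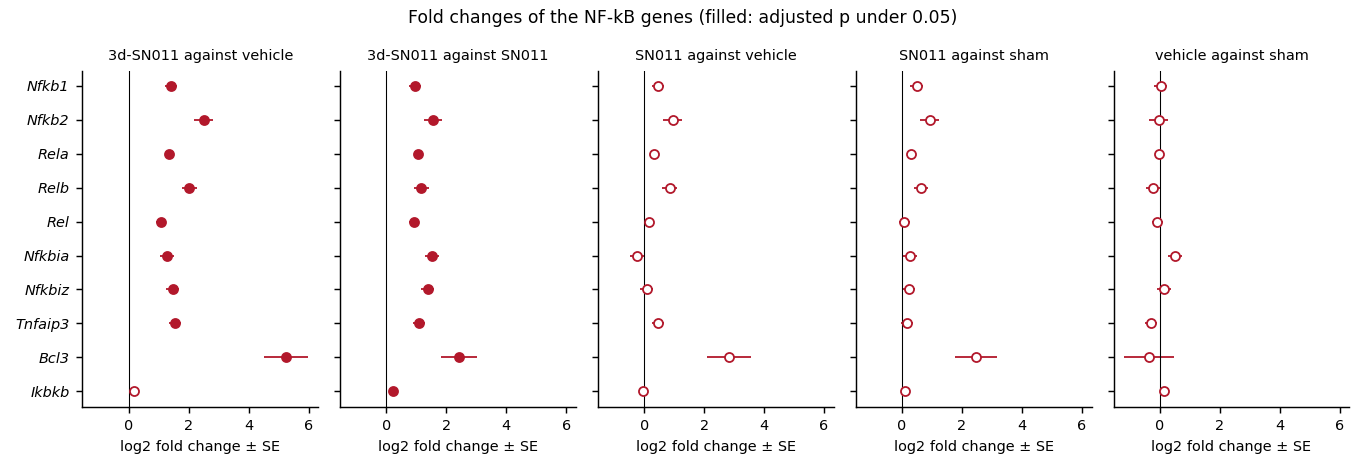
Log2 fold change with its standard error (horizontal axis) of each of the 10 genes (vertical axis) in 5 comparisons, from the edgeR fit of all 12 libraries; filled points have an adjusted p under 0.05. All 10 points are filled for 3d-SN011 against SN011, 9 for 3d-SN011 against vehicle and 0 in the other 3 comparisons, and Bcl3 lies farthest from 0 in all but vehicle against sham.

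Among the subunits, Rela, which encodes the p65 transactivating subunit (chromosome 19, 5637483 to 5648130 on GRCm38), was the most abundant per length. It stood at 85.9, 75.2 and 87.1 CPM in 3d-SN011 replicates 1 to 3, at 39.2, 33.5 and 47.8 in SN011, at 33.4, 30.3 and 33.5 in vehicle and at 33.2, 30.5 and 34.2 in sham. The 3d-SN011 values were well apart from all others, and the SN011 values lay just above those of vehicle. Its log2 fold change was 1.35 (SE 0.13) for 3d-SN011 against vehicle and 1.04 (SE 0.13) against SN011 (edgeR, adjusted p = 1.45e-05 and 0.000138). For vehicle against sham it was -0.01 (SE 0.13).

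Nfkb1 (chromosome 3, 135584655 to 135691547) encodes p105, the precursor of p50 and itself an IkB-like inhibitor. It had 89.8, 69.9 and 57.3 CPM in 3d-SN011, 33.05, 30.4 and 48.6 in SN011, 22.6, 29.998 and 29.02 in vehicle and 29.97, 26.1 and 24.1 in sham. All 3d-SN011 libraries were higher than any other, and SN011 replicate 3 came closest to them. Nfkb1 rose by a log2 fold change of 1.41 (SE 0.20) in 3d-SN011 against vehicle (edgeR, adjusted p = 9.61e-05).

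Nfkb2 (chromosome 19, 46304320 to 46312385), the source of p100 and p52, had the highest fold change of the 5 subunits in both comparisons of 3d-SN011. It had 40.02, 24.7 and 20.5 CPM in 3d-SN011, 7.80, 6.49 and 14.5 in SN011, 4.62, 4.95 and 5.41 in vehicle and 5.76, 4.85 and 4.66 in sham. The SN011 libraries were all above vehicle and sham, with replicate 3 the highest of them. The log2 fold change was 2.51 (SE 0.31) for 3d-SN011 against vehicle, 1.56 (SE 0.30) for 3d-SN011 against SN011 and 0.95 (SE 0.31) for SN011 against vehicle, of which the last was not called (edgeR, adjusted p = 3.73e-05, 0.00125 and 0.262). Exons of Nfkb2 overlap those of Psd on the other strand, and whether counting used strand is not known. Psd averaged 226 ± 113 CPM in 3d-SN011, 591 ± 144 in SN011, 587 ± 77.6 in vehicle and 625 ± 30.4 in sham (SD, n = 3 each). It was lower in 3d-SN011, where Nfkb2 was higher, and close to level between SN011 and vehicle.

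Relb (chromosome 7, 19606217 to 19629438), the partner of p52, had 26.2, 20.6 and 21.9 CPM in 3d-SN011, 8.55, 7.96 and 14.03 in SN011, 4.19, 5.73 and 6.95 in vehicle and 7.40, 6.79 and 5.50 in sham. SN011 again lay above vehicle and sham in every library. Its log2 fold change was 2.03 (SE 0.25) for 3d-SN011 against vehicle and 0.86 (SE 0.25) for SN011 against vehicle (edgeR, adjusted p = 3.55e-05 and 0.208). Rel (chromosome 11, 23736847 to 23770970), which encodes c-Rel, a subunit best known from lymphoid and myeloid cells, had the smallest rise of the 5 subunits. Its values were 20.01, 17.3 and 19.3 CPM in 3d-SN011, 9.30, 8.66 and 12.1 in SN011, 8.68, 9.11 and 9.01 in vehicle and 10.9, 9.27 and 8.17 in sham. SN011, vehicle and sham overlapped, and the log2 fold change for 3d-SN011 against vehicle was 1.08 (SE 0.17; edgeR, adjusted p = 0.000178).

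**Figure D2:**
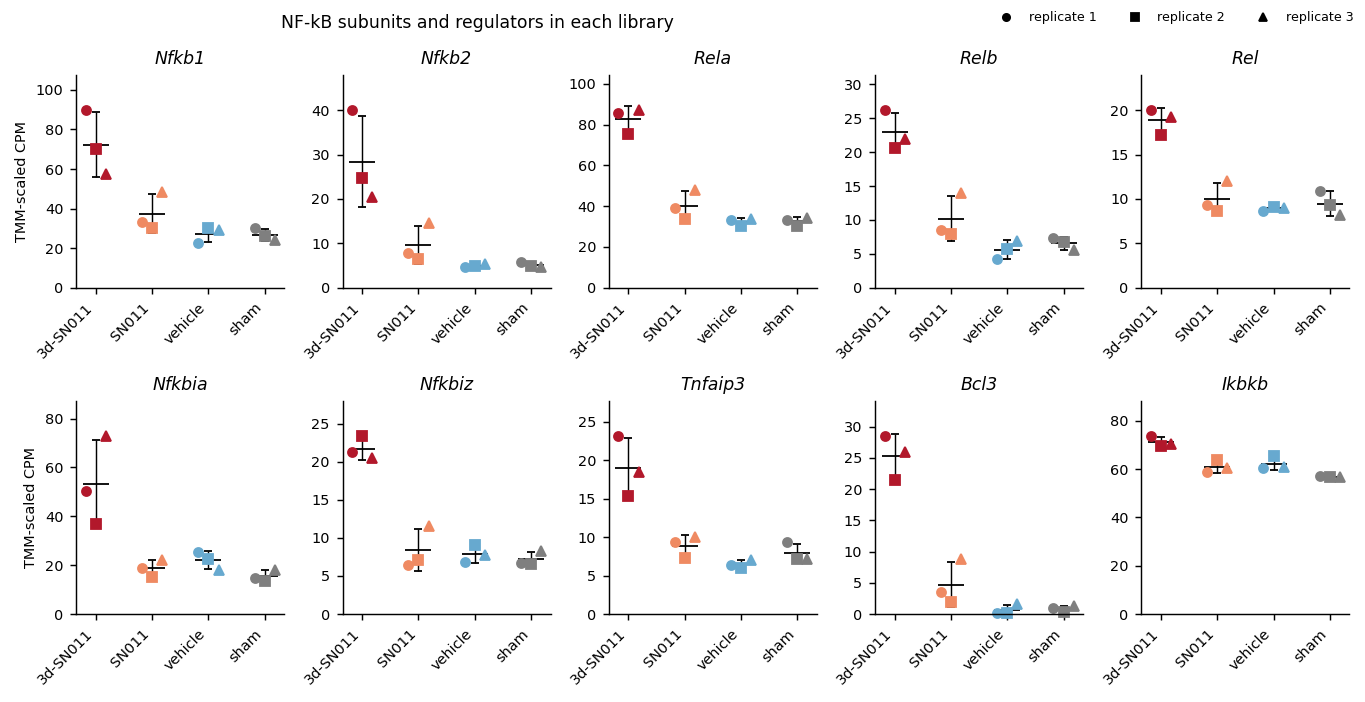
TMM-scaled CPM (vertical axis, linear, from 0) of each gene in each library, by group (horizontal axis); symbols mark replicates 1 to 3, and the horizontal dash and bar give mean ± SD (n = 3). The 3d-SN011 libraries lie above the SN011, vehicle and sham libraries in all 10 panels, and SN011 replicate 3 is the highest of its group in 9.

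The feedback inhibitors rose in the 3d-SN011 group as well. Nfkbia (chromosome 12, 55489410 to 55492647) encodes IkB-alpha, which removes NF-kB from DNA after activation. It had 50.3, 36.97 and 72.7 CPM in 3d-SN011, 18.9, 15.2 and 22.1 in SN011, 25.4, 22.5 and 18.1 in vehicle and 14.9, 13.5 and 18.2 in sham. It was the one gene of the 10, apart from Ikbkb, whose vehicle mean (21.97 ± 3.66) lay above its SN011 mean (18.7 ± 3.44), with overlapping values. The log2 fold change was 1.28 (SE 0.23) for 3d-SN011 against vehicle and 1.51 (SE 0.23) for 3d-SN011 against SN011 (edgeR, adjusted p = 0.000498 and 0.000399). For vehicle against sham it was 0.50 (SE 0.24), the highest of the 10, and for SN011 against vehicle -0.23 (SE 0.23); neither was called (adjusted p = 1 and 0.771).

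Tnfaip3 (chromosome 10, 19000910 to 19015657) encodes A20, a ubiquitin-editing enzyme that shuts off signalling from TNF and Toll-like receptors. It had 23.1, 15.3 and 18.4 CPM in 3d-SN011, 9.36, 7.25 and 10.03 in SN011, 6.37, 5.92 and 7.01 in vehicle and 9.34, 7.15 and 7.14 in sham. Vehicle was lower than sham in every library, and SN011 overlapped sham. The log2 fold change was 1.56 (SE 0.20) for 3d-SN011 against vehicle, and -0.29 (SE 0.20) for vehicle against sham, which was not called (edgeR, adjusted p = 4.75e-05 and 1).

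Nfkbiz and Bcl3 encode atypical IkB proteins that act in the nucleus. Nfkbiz (chromosome 16, 55811375 to 55838899) encodes IkB-zeta, a cofactor for a second wave of inflammatory genes. It was at 21.3, 23.3 and 20.5 CPM in 3d-SN011, at 6.47, 7.08 and 11.5 in SN011, at 6.81, 9.04 and 7.79 in vehicle and at 6.73, 6.55 and 8.23 in sham. SN011, vehicle and sham overlapped, and the log2 fold change for 3d-SN011 against vehicle was 1.46 (SE 0.22; edgeR, adjusted p = 0.000116).

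Bcl3 (chromosome 7, 19808462 to 19822770), which binds p50 and p52 dimers and can turn them into activators, had the largest fold change of the 10 in every comparison with an SN-011 group. It had 28.5, 21.4 and 25.9 CPM in 3d-SN011, 3.47, 1.87 and 8.82 in SN011, 0.187, 0.195 and 1.61 in vehicle and 0.971, 0.303 and 1.27 in sham. In reads these were 556, 433 and 481 in 3d-SN011, 60, 32 and 161 in SN011, 3, 3 and 25 in vehicle and 16, 5 and 21 in sham. Every SN011 library was above every vehicle and sham library, and every 3d-SN011 library was above every SN011 library. The log2 fold change was 5.24 (SE 0.73) for 3d-SN011 against vehicle and 2.41 (SE 0.59) for 3d-SN011 against SN011 (edgeR, adjusted p = 7.17e-05 and 0.00538). For SN011 against vehicle it was 2.82 (SE 0.72) and for SN011 against sham 2.47 (SE 0.69), neither called (adjusted p = 0.170 and 0.141). Most vehicle reads of Bcl3 came from vehicle replicate 3, and without it the log2 fold change was 6.99 for 3d-SN011 against vehicle, 4.58 for SN011 against vehicle and -2.11 for vehicle against sham, the last against -0.35 with it. Without SN011 replicate 3 the values were 3.23 for 3d-SN011 against SN011, 2.00 for SN011 against vehicle and 1.65 for SN011 against sham. Without SN011 replicate 2 both SN011 comparisons called Bcl3 (log2 fold change 3.20 and 2.85, adjusted p = 0.0332 and 0.0362). The antisense gene Gm16175, whose exons overlap those of Bcl3, had at most 9 reads in any library.

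Ikbkb (chromosome 8, 22659212 to 22706589), which encodes the IKK-beta kinase that phosphorylates IkB-alpha, had the smallest log2 fold change of the 10 in both comparisons of 3d-SN011. It had 73.6, 69.8 and 70.5 CPM in 3d-SN011, 58.8, 63.6 and 60.4 in SN011, 60.4, 65.4 and 61.1 in vehicle and 57.02, 56.7 and 56.6 in sham. The 3d-SN011 libraries were above the rest by a narrow margin. The log2 fold change was 0.23 (SE 0.09) for 3d-SN011 against SN011, which passed the threshold, and 0.19 (SE 0.09) for 3d-SN011 against vehicle, which did not (edgeR, adjusted p = 0.0468 and 0.0699).

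The SN011 group was not uniform. Replicate 3 was its highest library for 9 of the 10 genes, all but Ikbkb, and replicate 2 its lowest for 8. The median log2 difference of the 10 from their sham means was 0.28, 0.10 and 0.62 in SN011 replicates 1 to 3, between 1.32 and 1.63 in the 3d-SN011 libraries and between -0.12 and 0.10 in the vehicle libraries. In sham replicates 1 to 3 it was 0.18, -0.08 and -0.06, so SN011 replicate 2 lay below sham replicate 1. Without SN011 replicate 3 the log2 fold change for SN011 against vehicle was 0.52 for Nfkb2 (0.95 with it), 0.55 for Relb (0.86), 0.22 for Nfkb1 (0.46) and 0.17 for Rela (0.31). Against sham it was 0.49 for Nfkb2 (0.92 with it), 0.33 for Relb (0.63), 0.25 for Nfkb1 (0.48) and 0.15 for Rela (0.30).

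Because the subunits pair with each other, their proportions were computed within each library from reads per length, which needs no scaling between libraries. Nfkb2 made up 16.3%, 12.4% and 9.75% of the 5 subunits in 3d-SN011, 8.24%, 7.84% and 11.3% in SN011, 6.31%, 6.69% and 6.75% in vehicle and 7.01%, 6.56% and 6.09% in sham. Each 3d-SN011 and SN011 library had a larger share of Nfkb2 than any vehicle or sham library, and SN011 replicate 3 lay within the 3d-SN011 range. The share of Relb was 12.4% ± 0.187 in 3d-SN011, 11.6% ± 1.15 in SN011, 8.71% ± 1.79 in vehicle and 9.98% ± 1.29 in sham (SD, n = 3 each). The share of Rel was 5.33% ± 0.317 in 3d-SN011, 6.08% ± 0.327 in SN011, 7.25% ± 0.330 in vehicle and 7.47% ± 0.822 in sham, although its level rose. Rela remained the largest component, with 56.9% ± 4.88 in 3d-SN011, 59.3% ± 3.25 in SN011, 63.8% ± 3.61 in vehicle and 62.9% ± 3.46 in sham.

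Of 25 such comparisons (5 subunits in 5 pairs of groups), 9 reached p = 0.1 by a two-sided exact permutation test, the smallest that 3 against 3 libraries allow, and no adjusted p was under 0.278. They were Nfkb2, Relb and Rel for 3d-SN011 against vehicle and for SN011 against vehicle, Nfkb2 and Rel for SN011 against sham, and Rel for 3d-SN011 against SN011. The shares depend on the gene length used: with the longest transcript in place of the union of exons, Nfkb1 averaged 26.7% in place of 12.6% in 3d-SN011. The annotated exons of Nfkb1 span 12061 bases. The separation of Rel between 3d-SN011 and SN011 also depended on this choice. With the longest transcript these groups overlapped, the Rel share of 3d-SN011 replicate 3 lying above that of SN011 replicate 3. The groups in the other comparisons listed above stayed apart with that length. The log2 ratio of Nfkb2 to Nfkb1, per length, was 0.23, -0.11 and -0.09 in 3d-SN011, -0.69, -0.83 and -0.35 in SN011, -0.89, -1.21 and -1.03 in vehicle and -0.98, -1.03 and -0.98 in sham. The log2 ratio of Nfkbia to Rela was 0.16, -0.09 and 0.67 in 3d-SN011, -0.12, -0.21 and -0.18 in SN011, 0.54, 0.50 and 0.04 in vehicle and -0.23, -0.24 and 0.02 in sham. Each vehicle library had more Nfkbia per Rela than any SN011 or sham library, while 3d-SN011 overlapped vehicle and sham.

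**Figure D3:**
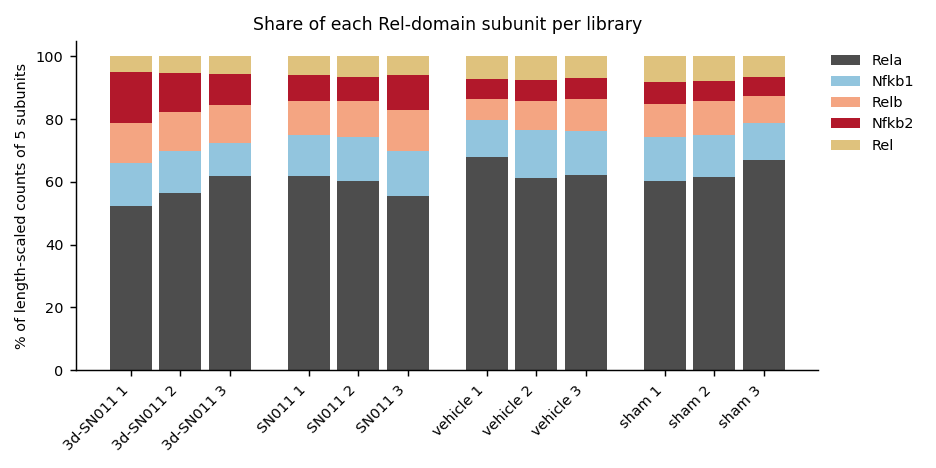
Percentage of the length-scaled reads of the 5 Rel-domain subunits (vertical axis) that fell to each gene in each of the 12 libraries (horizontal axis, in 4 groups). The Nfkb2 segment is 9.75% to 16.3% in 3d-SN011, 7.84% to 11.3% in SN011 and 6.09% to 7.01% in vehicle and sham.

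Ordered by level per length, Rela and Nfkbia led the 10 genes in every group, with overlapping values in 3d-SN011, SN011 and sham and with Nfkbia above Rela in vehicle. Mean levels were 33.1 CPM per kilobase for Nfkbia and 26.9 for Rela in 3d-SN011, and 9.64 and 10.6 in sham. Bcl3 was the lowest of the 10 in vehicle (0.268 CPM per kilobase) and sham (0.343), stood among overlapping neighbours in SN011 (1.91) and was the highest after Nfkbia and Rela in 3d-SN011 (10.2), where its range overlapped that of Nfkb2. By mean, Ikbkb came next after Rela and Nfkbia in SN011, vehicle and sham and stood below Nfkbiz in 3d-SN011. In SN011 its range (3.08 to 3.34) overlapped that of Nfkb1 (2.52 to 4.03). The annotated exons of Ikbkb span 19078 bases, which lowers its value per length. Rel and Tnfaip3 had the lowest means in 3d-SN011 and SN011 and did not separate from each other. In SN011 the range of Rel (1.16 to 1.61) also overlapped that of Nfkbiz (1.29 to 2.29).

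Other genes of the pathway were taken from lists of receptors, ligands, kinases and adaptors, inhibitors and target genes that hold none of the 10. For 3d-SN011 against vehicle, 19 of 19 receptors tested rose, with a median log2 fold change of 3.11, beside 28.9% of all genes. Tnfrsf1a, the main TNF receptor, averaged 135 ± 13.7 CPM in 3d-SN011, 32.2 ± 20.5 in SN011, 11.4 ± 2.36 in vehicle and 11.7 ± 1.01 in sham (SD, n = 3 each). Ltbr, the lymphotoxin receptor of the noncanonical route, averaged 56.9 ± 11.3 in 3d-SN011, 16.7 ± 6.61 in SN011, 9.99 ± 1.87 in vehicle and 9.51 ± 2.08 in sham, and Tlr9, a receptor for unmethylated DNA, rose by a log2 fold change of 2.88 (SE 0.32). Of 10 ligands tested 8 rose (median 1.90), among them Tnfsf12 (TWEAK), at 17.8 ± 2.34 CPM in 3d-SN011 and 3.91 ± 0.743 in vehicle, Il1a by 2.46 (SE 0.42) and Tnfsf13b (BAFF) by 2.27 (SE 0.40). Tnf itself had no read in any vehicle library, and stood at 3.48, 1.29 and 2.53 CPM in 3d-SN011 and 0.347, 0.117 and 0.822 in SN011. In sham it had 5 reads in replicate 1 and 0 in the others.

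Of 31 kinases and adaptors 22 rose and 2 fell for 3d-SN011 against vehicle (median 1.28), beside 28.9% of all genes higher and 28.2% lower. Myd88, the adaptor of Toll-like and interleukin-1 receptors, averaged 22.2 ± 2.78 CPM in 3d-SN011 and 3.49 ± 0.287 in vehicle, Card9, an adaptor of myeloid receptors, rose by 2.53 (SE 0.28) and Ripk1, a kinase of the TNF receptor complex, by 1.94 (SE 0.22). Map3k14, which encodes NIK of the noncanonical route, averaged 26.4 ± 2.62 CPM in 3d-SN011, 11.7 ± 2.82 in SN011, 8.96 ± 1.28 in vehicle and 7.57 ± 0.587 in sham. Inhibitors outside the 10 were more mixed, with 12 of 20 tested higher and 4 lower (median 0.64). Zc3h12a, which encodes an RNase that degrades inflammatory transcripts, rose by 3.31 (SE 0.40) and Pdlim2 by 2.30 (SE 0.29), while Cyld, a deubiquitinase that restrains IKK, fell to 120 ± 52.4 CPM in 3d-SN011, against 462 ± 33.1 in vehicle (log2 fold change -1.94, SE 0.27). For the genes named in these 2 paragraphs with a fold change, the edgeR adjusted p was at most 0.000408.

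Of 39 target genes tested, out of 50 listed, 30 rose and 2 fell for 3d-SN011 against vehicle (median 2.78). Of all genes 28.9% rose and 28.2% fell. The filter asks for enough counts in 3 libraries, so genes with few reads elsewhere were tested only through high 3d-SN011 counts. Ccl4, with 237, 193 and 116 reads in 3d-SN011, 17, 4 and 68 in SN011 and 1, 6 and 5 in vehicle, was such a gene. Counts of rises among tested targets, ligands and lymphocyte and monocyte markers can be inflated by this filter. C3, the central complement component, rose by 4.31 (SE 0.39), Plau, the urokinase plasminogen activator, by 4.40 (SE 0.45) and Tapbp, a chaperone of MHC class I loading, by 2.22 (SE 0.24; edgeR, adjusted p from 1.23e-05 to 1.78e-05). Sod2, the mitochondrial superoxide dismutase, fell to 82.01 ± 17.4 CPM in 3d-SN011, against 165 ± 6.61 in vehicle (-1.01, SE 0.16, adjusted p = 0.000194). The 11 listed targets with too few reads to be tested included Cxcl1, Cxcl2, Il6, Sele and Saa3.

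For 3d-SN011 against SN011 the counts were 16 of 19 receptors higher, 8 of 10 ligands, 21 of 31 kinases and adaptors with 1 lower, 10 of 20 other inhibitors with 2 lower and 25 of 39 targets with 1 lower, beside 23.6% of all genes higher and 22.9% lower. Il1r1, the interleukin-1 receptor, averaged 37.8 ± 12.7 CPM in 3d-SN011 and 9.99 ± 2.36 in SN011. Cflar, an inhibitor of caspase-8, averaged 72.03 ± 10.6 in 3d-SN011 and 32.5 ± 9.72 in SN011, and Irak2, a kinase of the Myd88 complex, rose by a log2 fold change of 1.01 (SE 0.16; edgeR, adjusted p = 0.000437).

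Almost no pathway gene was called between SN011, vehicle and sham in the fit of all 12 libraries. For SN011 against vehicle C3 alone was (log2 fold change 2.89), and for SN011 against sham C3 (3.63) and the chemokine Cxcl10 (5.24), in the edgeR fit at adjusted p = 0.0414, 0.00870 and 0.0388. Over all genes 3 and 21 were called. Neither comparison called any gene once 1 library of its vehicle or sham group was left out. Without a filter on low counts, however, 601 and 775 genes were called. Leaving out SN011 replicate 2 gave 513 and 694. The pathway genes among these were not counted. List medians for SN011 against vehicle were 1.24 for receptors, 1.31 for targets, 0.51 for ligands, 0.32 for kinases and adaptors and 0.21 for other inhibitors, beside -0.0077 over all genes. SN011 replicate 3 stood apart in them: the median log2 difference from the sham mean in SN011 replicates 1 to 3 was 0.75, 0.43 and 1.84 for receptors, 1.03, 0.44 and 1.85 for targets and 0.18, 0.07 and 0.63 for kinases and adaptors. Tlr2, the receptor for bacterial lipoproteins, stood at 8.03, 4.56 and 32.1 CPM in SN011 and at 1.56, 1.95 and 3.22 in vehicle, and was not called (adjusted p = 0.149). For vehicle against sham list medians lay between 0.00 and 0.08 and no gene was called. Peli1, a ubiquitin ligase of the Toll-like receptor pathway, averaged 79.03 ± 4.97 CPM in vehicle and 56.7 ± 0.402 in sham without passing the threshold (edgeR, adjusted p = 1). For 3d-SN011 against vehicle Peli1 was called lower (log2 fold change -0.29, SE 0.10; edgeR, adjusted p = 0.0278). The adaptor Malt1 and the target Ptgs2 were not called there (-0.01 and 0.53; edgeR, adjusted p = 0.944 and 0.295).

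**Figure D4:**
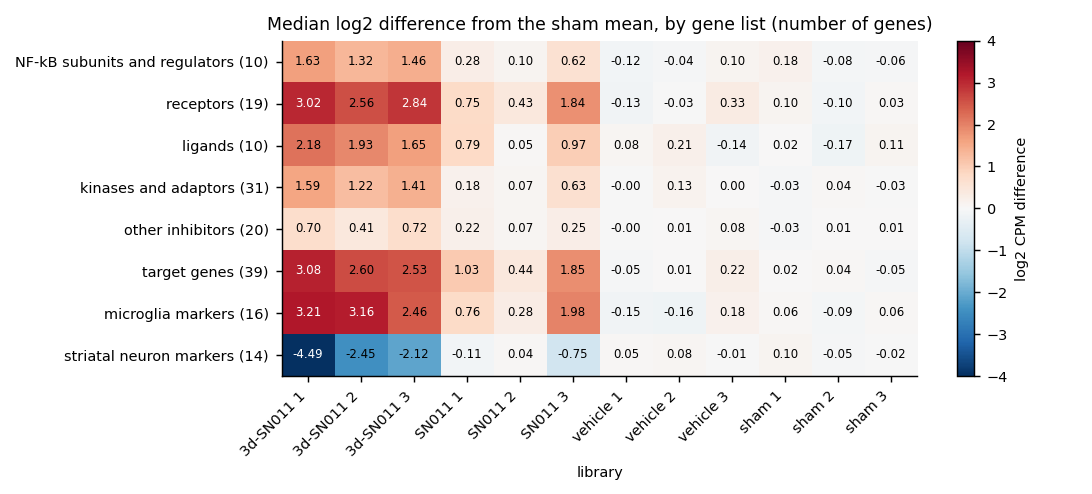
Median log2 CPM difference from the sham mean (colour, with the value printed) for 8 gene lists (vertical axis, number of genes tested in brackets) in each of the 12 libraries (horizontal axis). The 10 NF-kB genes stand at 1.32 to 1.63 in 3d-SN011, 0.10 to 0.62 in SN011, -0.12 to 0.10 in vehicle and -0.08 to 0.18 in sham. Microglia markers stand at 2.46 to 3.21 in 3d-SN011, 0.28 to 1.98 in SN011, -0.16 to 0.18 in vehicle and -0.09 to 0.06 in sham.

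Markers of cell types moved with these groups. The counts of markers below are for 3d-SN011 against vehicle, where 28.9% of all genes rose and 28.2% fell. Summed over 16 microglia markers, of which 16 rose for 3d-SN011 against vehicle, the level was 6194 to 8350 CPM in 3d-SN011, 792 to 2902 in SN011, 547 to 671 in vehicle and 577 to 633 in sham, and SN011 replicate 3 was again the highest of its group. Aif1, a defining gene of microglia and macrophages, stood at 72.9, 59.7 and 31.8 CPM in 3d-SN011, 8.78, 4.74 and 18.5 in SN011, 2.50, 4.23 and 4.70 in vehicle and 3.52, 3.45 and 4.48 in sham. Of 12 astrocyte markers 10 rose and 0 fell (summed 13816 to 18652 CPM in 3d-SN011, 6964 to 11395 in SN011, 6098 to 6726 in vehicle and 6658 to 6977 in sham), and of 11 endothelial markers 8 rose (506 to 925 CPM in 3d-SN011, 429 to 483 in SN011, 421 to 441 in vehicle and 506 to 536 in sham). All 14 striatal neuron markers fell, and their sum was 579 to 2957 CPM in 3d-SN011, 7163 to 12526 in SN011, 12082 to 12574 in vehicle and 11870 to 12841 in sham. Of 13 general neuron markers 13 fell. The part of these shifts in the values of the 10 genes was not tested.

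Defining genes of neutrophils had few or no reads. Of 11 neutrophil markers 10 had too few reads to be tested, Ly6g had at most 2 reads in any library and S100a8 had 6, 25 and 34 reads in 3d-SN011 and at most 7 in any other. Of 10 monocyte and border macrophage markers tested 8 rose and 1 fell for 3d-SN011 against vehicle, beside 28.9% of all genes higher and 28.2% lower. Their sums were 131 to 489 CPM in 3d-SN011, 90.5 to 104 in SN011, 60.3 to 76.8 in vehicle and 81.7 to 91.05 in sham. Ccr2, the chemokine receptor of inflammatory monocytes, stood at 5.78, 3.81 and 0.916 CPM in 3d-SN011 and 0.562, 1.37 and 0.193 in vehicle. Of 7 lymphocyte markers tested, out of 15, 5 rose and 1 fell (median log2 fold change 3.69). Their sum was lower, at 22.7 to 26.6 CPM in 3d-SN011, against 81.3 to 103 in vehicle and 84.4 to 95.3 in sham. The sum therefore does not follow most of the 7. Mural cell markers rose for 7 of 10 and oligodendrocyte markers for 6 of 10. Choroid plexus and ependyma markers, from tissue beside the striatum, rose for 4 of 11 and fell for 6, and their sum ran from 142 to 2562 CPM within sham.

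Likeness of pattern was measured as the root mean square difference in log2 CPM, each gene centred on its own mean, over the 12 libraries, among genes that averaged 1 CPM or more. Rela was nearest to Lpcat3 (0.070) and Rack1 (0.071), Rel to Nsa2 (0.093) and Nubp2 (0.094), and Nfkb1 to Dpp7 (0.12) and Haus8 (0.12). Nfkb2 was nearest to Mylip (0.095) and Itpripl2 (0.14), and Relb to Plxnb2 (0.15) and Npepl1 (0.16). Tnfaip3 was nearest to Myh9 (0.10) and Rpl23 (0.11), Nfkbiz to Smc4 (0.14) and Rsu1 (0.15), and Ikbkb to Srsf2 (0.039) and Pcbp2 (0.045). Nfkbia was at 0.21 from both Plat and Adipor2, and Bcl3 at 0.56 from Arl11 and 0.60 from Fgr. The measure grows with a gene's own spread, whose SD over the 12 libraries was 2.45 (log2) for Bcl3, 0.75 for Nfkbia and 0.13 for Ikbkb, so it does not rank the genes by how near their neighbours are. Among the 10 themselves the nearest pair was Rela and Tnfaip3, at 0.16. The libraries share the large split between 3d-SN011 and the rest, which many genes follow, so a small difference is a description only.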

How the data were processed

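The authors deposited raw read counts for each Ensembl gene, with a table for every library and no normalization as far as the values show. The submitters' processing notes name HISAT2, featureCounts and the build mm10. Tool versions, the annotation release and whether strand was used are not given in the sources. Symbols came from the reference gene names (54409 of 54532 genes matched), gene positions and exon lengths from GENCODE M21 on GRCm38, and promoter windows from RefSeq on GRCm38.p6. Exons of Nfkb2 and Bcl3 overlap genes on the other strand.

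Tests on these counts used edgeR 4.0.16 under R 4.3.3. Genes kept by filterByExpr (minimum count 10, by group) numbered 18537. Libraries were TMM-scaled, and 1 quasi-likelihood model with group as its only term was fitted to all 12, with glmQLFTest for 5 pairs of groups and Benjamini-Hochberg adjustment over all 18537 genes in each. Standard errors are the log2 fold change divided by the root of F, without sign. The test was tested on simulated data. List medians per library and pattern likeness used log2(CPM + 0.1). Subunit shares used counts over the union of exons, with exact permutation tests in scipy 1.17.1. Alternatives were RLE scaling, DESeq2 1.42.0, no filter, the 6 libraries of a pair alone, the replicate number as a block, leaving out each replicate, and the longest transcript as length. Plots were made in Python 3.11.15 (matplotlib 3.10.9).

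The 10 genes and all gene lists were chosen with earlier results of these data known. Genes named outside the 10 are, per pathway list and comparison, the 3 called genes with the smallest adjusted p or, where none was called, the 2 with the smallest p, followed through the other comparisons; defining genes of cell types; and for each of the 10 the 2 genes nearest in pattern. Nearest genes exclude names of unnamed gene models (Gm, Rik, Ensembl IDs) and pseudogenes. Untested targets and genes overlapping a member were named after their values were seen.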

Additional observations from a re-analysis of the deposited data

How the results depend on the processing

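Over 550 refits of a log2 fold change of 1 of the 10 genes in 1 comparison, 518 kept their direction and their side of the threshold, 18 changed sign, 8 lost their call and 6 gained one. The 9 calls for 3d-SN011 against vehicle held under every alternative, with counts of 9 to 10 genes, and for 3d-SN011 against SN011 the count was 9 or 10. The 8 lost calls were all of Ikbkb for 3d-SN011 against SN011, with adjusted p from 0.0533 to 0.315. The 18 values that changed sign were not called, and all did so when 1 library was left out. With 1 library left out, the log2 fold change for vehicle against sham ran from -0.050 to 0.14 for Nfkb1, from -0.090 to 0.070 for Nfkb2, from -0.060 to 0.033 for Rela, from -0.18 to 0.035 for Rel and from -2.11 to 0.092 for Bcl3. For SN011 against sham it ran from -0.074 to 0.20 for Rel and from -0.081 to 0.38 for Nfkbiz, and for SN011 against vehicle from -0.22 to 0.24 for Nfkbiz and from -0.065 to 0.0050 for Ikbkb.

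Genes called over the whole table depended on the setting where few were called. For vehicle against sham the 0 became 5 without a filter, 5 by DESeq2 and 16 in the 6 libraries alone. For SN011 against vehicle the 3 became 601 without a filter, 443 by DESeq2, 5 in the 6 libraries alone and 19 with the replicate block, and ran from 0 to 513 when 1 library was left out. For SN011 against sham the 21 became 775, 638 and 7 under the first 3 of these, and 0 to 694 with 1 library left out. Of the 10 genes, 1 instead of 0 was called without a filter in each SN011 comparison (Bcl3, adjusted p = 0.000523 against vehicle and 0.00110 against sham) and by DESeq2 against vehicle, with 0 to 1 when 1 library was left out. DESeq2 also called Ikbkb for 3d-SN011 against vehicle (adjusted p = 0.0279). The cause of these changes was not tested. RLE scaling changed no call of the 10.

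No pairing by replicate number was seen, although 3 libraries per group cannot exclude it. Of 18 same-numbered pairs across groups, 2 had a correlation of deviations from the group means above 0.1 (range -0.293 to 0.143). Of 12 libraries, 4 correlated best with their own number. With the replicate block the call of Ikbkb for 3d-SN011 against SN011 was lost (adjusted p = 0.0640) and no other call of the 10 moved.

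With the longest transcript as length, mean subunit shares moved by more than their spread, in the order 3d-SN011, SN011, vehicle and sham, for Nfkb1 (26.7%, 29.2%, 28.8% and 27.9%), Rela (47.4%, 48.5%, 52.7% and 52.2%) and Rel (3.92%, 4.40%, 5.28% and 5.48%), for Relb in 3d-SN011 (10.8%), SN011 (9.99%) and sham (8.69%), and for Nfkb2 in vehicle (5.71%) and sham (5.73%).

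Depth limits Bcl3, which rests on 3, 3 and 25 reads in vehicle.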
